A study of Mus musculus with 6 samples.

Results

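The amino acid transporters described here are 9 genes whose products carry amino acids across the plasma membrane: Slc7a1, Slc7a3, Slc7a5, Slc7a11, Slc3a2, Slc38a2, Slc1a4, Slc1a5 and Slc6a9. They were taken by name from the gene symbols that the scanner files give each probe, which found 17 probes for all 9 genes on arrays of 41174 probes. Of these, 13 probes were well above background on both arrays of at least 1 group, and they were so on all 6 arrays, which left 8 measured genes of 19369. Slc7a11 was the gene without such a probe.

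The RNA came from J1, a mouse embryonic stem cell line, and was total RNA, hybridised in 1 colour (Cy3) to Agilent expression arrays. The groups were an siRNA against Thoc2, an siRNA against Thoc5 and a non-targeting siRNA (NT), with 2 arrays each and RNA taken 96 hours after transfection. All groups shared the line, growth in ESGRO medium and the M10 medium used for transfection. Thoc2 and Thoc5 are subunits of THO, which joins new transcripts and couples them to export from the nucleus, and total RNA does not separate nuclear from cytoplasmic mRNA. Nothing in the labels tells whether the 2 replicates of a group were independent cultures, so every p-value here measures only the spread between arrays. In such bulk RNA fewer cells of a type and less mRNA per cell cannot be told apart.

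Cells cannot make the essential amino acids and take them up through carriers of several families. Slc7a1 and Slc7a3 (Cat1 and Cat3) carry the cationic amino acids arginine and lysine. Slc7a5 (Lat1) exchanges large neutral amino acids such as leucine and Slc7a11 (xCT) exchanges cystine for glutamate, and both reach the cell surface as dimers with the glycoprotein Slc3a2, known as 4F2hc or Cd98. Slc38a2 (Snat2) brings in small neutral amino acids with sodium, Slc1a4 (Asct1) and Slc1a5 (Asct2) exchange neutral amino acids including serine and, for Slc1a5, glutamine, and Slc6a9 (Glyt1) takes up glycine. Several of these genes are known targets of Atf4, the transcription factor made when amino acids run short, which binds the amino acid response element. Early mouse embryos take up glycine through Slc6a9.

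A level below is the log2 processed signal of a gene's brightest probe minus the 75th percentile of its array, so that 0 is the signal at that percentile, and levels of different genes are not compared. The signal at the percentile was 716 and 733 with Thoc2 siRNA, 306 and 738 with Thoc5 siRNA, and 817 and 905 with NT siRNA. Replicate 1 of Thoc2 siRNA was the only array scanned on another day and held 880 outlier spots, against 63 to 155 on the others, and replicate 1 of Thoc5 siRNA was the dimmest. With its own siRNA Thoc2 was at 55.0% and Thoc5 at 41.4% of the NT level, with limma adjusted p of 0.304 and 0.130. All 9 embryonic stem cell markers that the arrays carry of a list of 10 were measured, and their summed signal, relative to the 75th percentile, was 828 to 860 with Thoc2 siRNA, 801 to 1007 with Thoc5 siRNA and 1006 to 1061 with NT siRNA. The summed signal of 9 of 10 trophectoderm markers was 11.6 to 11.9, 21.4 to 24.5 and 15.5 to 16.0 in the same order, and that of 9 of 10 fibroblast and feeder markers 1.44 to 1.83, 1.33 to 1.44 and 2.01 to 2.77. Elf5 of the trophectoderm list and Lum of the fibroblast list were not well above background. These sums follow the brightest markers. All 9 stem cell markers had a log2 fold change below 0 after each siRNA, beside 44.2% (Thoc2) and 56.8% (Thoc5) of all genes. Their medians were -0.30 and -0.36. In the trophectoderm and fibroblast lists single markers went other ways than the sums. Of the 9 trophectoderm markers 6 were above 0 after Thoc2 siRNA (median log2 fold change 0.34) and 8 after Thoc5 siRNA (0.68), with Gata3 at 2.38 and 1.85, while the bright Krt18 was at -0.54 and 0.65. Of the 9 fibroblast markers 5 were above 0 after Thoc2 siRNA (median 0.063), among them Col3a1 (2.03), Dcn (1.06) and Twist1 (0.69), and 4 after Thoc5 siRNA (median -0.069), while Thy1 was at -1.56 and -2.01. Col3a1 was dim, at -6.58 and -6.95 with NT siRNA. A marker needed to be well above background in only 1 group, so the size of that fold change may rest on NT readings near background. Endoderm markers (8 of 10, without Afp and Ttr) summed to 4.43 on both Thoc2 siRNA arrays, 3.90 to 12.4 with Thoc5 siRNA and 1.90 to 9.06 with NT siRNA. Of these 8 markers 5 were above 0 after Thoc2 siRNA (median 0.26) and 7 after Thoc5 siRNA (median 0.73), 0 of them at a limma unadjusted p under 0.05. Of all genes 6.46% were lower and 8.07% higher by this measure after Thoc2 siRNA, and 12.1% and 7.4% after Thoc5 siRNA. With so few markers this count of 0 is not read as a result. Neural markers (8 of 10, without Pax3 and Olig2) and mesoderm markers (8 of 10, without Mixl1 and Foxf1) had sums that overlapped between Thoc2 siRNA and NT arrays. They were 1.21 to 1.70, 1.37 to 1.86 and 1.49 to 1.69 for neural markers, and 0.834 to 1.08, 0.750 to 0.852 and 0.874 to 0.900 for mesoderm markers, in the order Thoc2, Thoc5 and NT siRNA. Single markers differed within these sums. Of the 8 mesoderm markers 5 were above 0 after Thoc2 siRNA (median 0.27), with Kdr at 1.20 and Evx1 at 1.08 but Tbx6 at -1.19. After Thoc5 siRNA 4 were above 0 (median -0.18). Of the 8 neural markers 5 were above 0 after Thoc2 siRNA (median 0.48) and 4 after Thoc5 siRNA (median 0.097). The part of these markers and of the arrays' differences in the transporter values was not tested.

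How the transporter mRNAs stood in the knockdown cells was asked by setting each siRNA group, and the mean of both, against NT. The glycine transporter gene Slc6a9 and the neutral exchanger genes Slc1a5 and Slc1a4 were lower in both knockdowns, with Slc6a9 at 49.4% of its NT level after Thoc2 siRNA and 45.0% after Thoc5 siRNA. Slc7a5 and Slc38a2 were lower by less, Slc3a2 differed by less than its standard error, and the 2 cationic transporter genes varied most between replicates. No gene of the 19369 passed the adjusted threshold in any comparison, 0 members included, so these are differences in value and not calls (limma, Benjamini-Hochberg over all genes; the smallest adjusted p was 0.207, 0.101, 0.403 and 0.105 for Thoc2 against NT, Thoc5 against NT, Thoc5 against Thoc2 and both against NT). At an unadjusted p under 0.05 there were 2815, 3767, 1776 and 3705 genes in the same order. The NT arrays are the same in both knockdown comparisons, so their likeness is no second observation. The members were picked with earlier values of these arrays known, and their counts are a description.

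**Figure D1:**
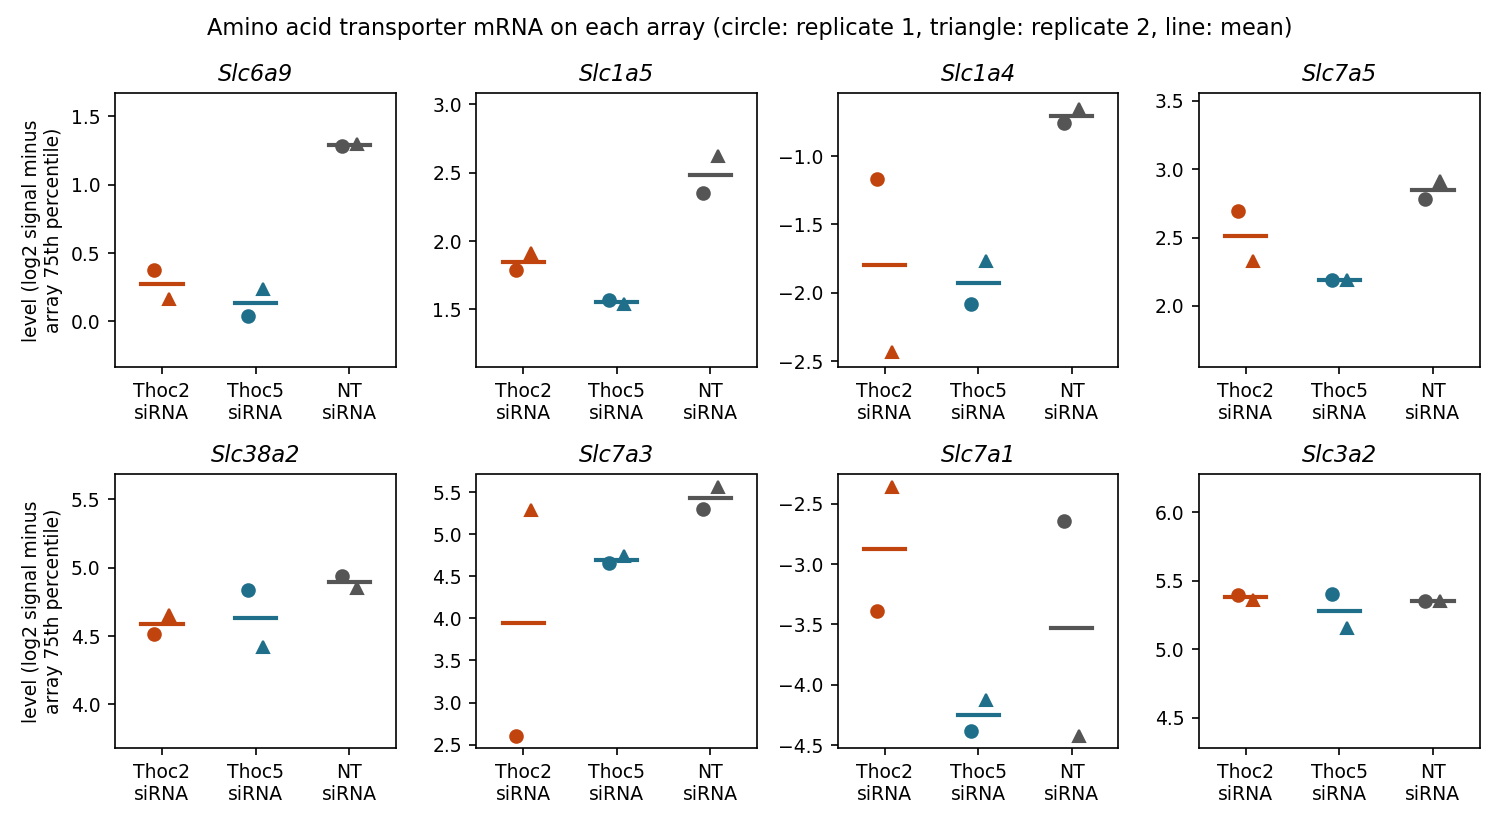
Level of each of the 8 measured transporter genes on each array, as log2 signal minus the array's 75th percentile, with Thoc2, Thoc5 and NT siRNA from left to right; circles are replicate 1, triangles replicate 2 and lines group means, and the scale differs between panels. All 4 knockdown arrays lie below both NT arrays for Slc6a9, Slc1a5, Slc1a4, Slc7a5, Slc38a2 and Slc7a3, the last 2 narrowly, while Slc7a1 and Slc3a2 overlap.

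After Thoc2 siRNA, 6 of the 8 measured transporters had a log2 fold change below 0, against 44.2% of all genes, and Slc3a2 was a 7th under normexp background correction while Slc38a2 left the count when its probes were averaged. Their median was -0.49, beside 0.063 for all genes. An unadjusted p under 0.05 with a lower level was found for 2 of the 8, Slc1a5 and Slc6a9, where 6.46% of all genes had one, and for 0 with a higher level, where 8.07% had one. Both arrays lay below both NT arrays for 6 of the 8, where 20.9% of genes did so, and both lay above for 1, Slc3a2, where 26.1% did. Without replicate 1 of Thoc2 siRNA, the array with the many outlier spots, 6 were below 0 and the median was -0.38. With any 1 array left out the median lay between -0.59 and -0.38.

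After Thoc5 siRNA all 8 measured transporters were below 0, where 56.8% of all genes were, although Slc3a2 turned to 0.039 with quantile normalization and 0.014 with cyclic loess, and Slc7a1 to 0.49 with normexp. The median was -0.72, beside -0.085 for all genes. Those with an unadjusted p under 0.05 were Slc7a5, Slc1a4, Slc1a5 and Slc6a9, 4 of 8, where 12.1% of genes were lower and 7.4% higher by this measure. The 6 whose arrays did not overlap were all lower, beside 31.1% of all genes lower and 21.7% higher in this way. Leaving out replicate 1 or replicate 2 of Thoc5 siRNA gave medians of -0.68 and -0.81.

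For the mean of both knockdowns 8 of 8 were below 0, where 50.7% of genes were, with 7 of 8 after quantile normalization, cyclic loess or normexp and 6 of 8 with probes averaged. The median was -0.64, beside -0.0079 for all genes, and the same 4 genes, Slc7a5, Slc1a4, Slc1a5 and Slc6a9, had an unadjusted p under 0.05, beside 10.3% of genes. All 4 knockdown arrays lay below both NT arrays for 6 members, beside 16.3% of genes, and above for 0, beside 14.3%. With any 1 array left out the median lay between -0.78 and -0.51. Taking all 13 probes in place of 1 per gene gave a median of -0.29.

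A limma fit with an intensity trend and robust variances made calls among the transporters: 0 after Thoc2 siRNA, where it called 0.0155% of all genes lower and 0.00516% higher, and 2, Slc6a9 and Slc1a5, after Thoc5 siRNA, where it called 2.09% lower and 1.32% higher. For both knockdowns it called the same 2 lower, beside 1.93% of all genes lower and 1.36% higher. Every gene it called rests on the same arrays as before, and this setting differs only in how the spread of a gene is estimated.

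**Figure D2:**
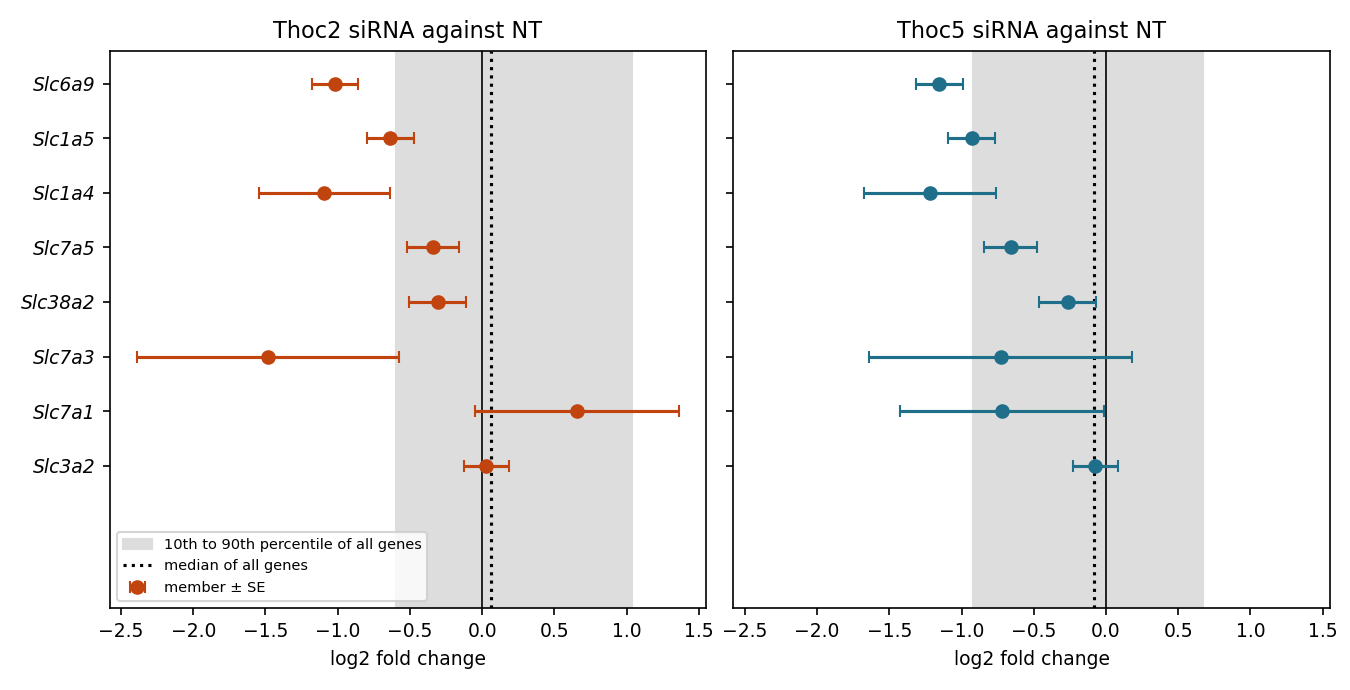
Log2 fold change of each measured transporter gene with its standard error from limma, for Thoc2 siRNA (left) and Thoc5 siRNA (right) against NT; the grey band holds the 10th to 90th percentile of all 19369 genes (-0.60 to 1.04 and -0.92 to 0.67) and the dotted line their median. Slc6a9, Slc1a4 and Slc1a5 lie below the band in both panels, Slc1a5 narrowly in each. Slc7a3 lies below it after Thoc2 siRNA, with a wide error. Slc7a1 lies above 0 after Thoc2 siRNA and below 0 after Thoc5 siRNA with a wide error.

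The glycine transporter gene Slc6a9 was measured by 1 probe, A_51_P351872, at chr4:117245669-117245728 on the plus strand of mm7, the build that the file headers name. The first 30 of its 60 bases are shown, with those of the Slc1a5 probe A_51_P453475 (chr7:14562181-14562240, plus strand), since these 2 genes had the smallest p-values among the transporters.
Slc6a9 probe, 5′ end: cgccgctgcccagtgtgtgcagaactaggg
Slc1a5 probe, 5′ end: cctaccctctcaggaaatgggttgtcctgt

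Slc6a9 stood at 0.37 and 0.17 with Thoc2 siRNA, 0.04 and 0.23 with Thoc5 siRNA, and 1.29 and 1.29 with NT siRNA. The 4 knockdown arrays lay close together and about 1 log2 unit below the NT arrays, which were nearly equal. The log2 fold change was -1.02 ± 0.16 after Thoc2 siRNA and -1.15 ± 0.16 after Thoc5 siRNA (SE of the limma fit, 2 arrays per group). Its limma unadjusted p was 0.00218 and 0.0013, and its adjusted p 0.218 and 0.101. The second was the smallest value in that comparison, shared by 308 genes, and by unadjusted p Slc6a9 ranked 246 there. With limma's intensity trend and robust variances the adjusted p of Slc6a9 was 0.0250 after Thoc5 siRNA and 0.0233 for both knockdowns, and with probes required above background on all 6 arrays it was 0.0396 and 0.0385. Replicate 2 of Thoc2 siRNA shared a slide with replicate 1 of NT, and replicate 2 of Thoc5 siRNA with replicate 2 of NT. Replicate 1 of each knockdown shared no slide with NT. Within the shared slides, 1 array against 1, the differences were -1.12 (Thoc2 siRNA) and -1.06 (Thoc5 siRNA). No setting tried moved Slc6a9 outside -1.25 to -0.91 in these 2 comparisons.

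Slc1a5, the gene of the glutamine exchanger, had levels of 1.79 and 1.91 with Thoc2 siRNA, 1.57 and 1.54 with Thoc5 siRNA, and 2.35 and 2.62 with NT siRNA. No knockdown array reached the NT arrays, and the Thoc5 siRNA arrays were below the Thoc2 siRNA arrays. Slc1a5 was thus at 64.4% of NT after Thoc2 siRNA (-0.63 ± 0.16, limma adjusted p = 0.251) and at 52.5% after Thoc5 siRNA (-0.93 ± 0.16, limma adjusted p = 0.111). Within the shared slides the differences were -0.44 and -1.08, and normexp background correction gave -1.10 after Thoc2 siRNA. With trend and robust variances the adjusted p was 0.0323 after Thoc5 siRNA and 0.0362 for both knockdowns.

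Its relative Slc1a4, which exchanges alanine, serine, cysteine and threonine, was at -1.17 and -2.43 with Thoc2 siRNA, -2.08 and -1.77 with Thoc5 siRNA, and -0.76 and -0.65 with NT siRNA, by probe A_52_P273098 (chr11:20254539-20254598, minus strand, mm7). Its Thoc2 siRNA arrays differed from each other by more than replicate 1 differed from NT. The log2 fold change was -1.09 ± 0.46 after Thoc2 siRNA and -1.22 ± 0.46 after Thoc5 siRNA, with limma adjusted p of 0.376 and 0.256. Without replicate 2 of Thoc2 siRNA the first was -0.46, without replicate 1 it was -1.72, and within the shared slide it was -1.67. Normexp background correction gave -0.48 after Thoc2 siRNA, -0.43 after Thoc5 siRNA and -0.46 for both, against -1.15 for both without it.

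Slc38a2, the gene of the sodium-coupled transporter Snat2, was at 4.52 and 4.66 with Thoc2 siRNA, 4.84 and 4.42 with Thoc5 siRNA, and 4.94 and 4.85 with NT siRNA. The knockdown arrays were all lower, replicate 1 of Thoc5 siRNA by almost nothing. Its log2 fold changes of -0.31 ± 0.20 and -0.27 ± 0.20 after Thoc2 and Thoc5 siRNA had limma adjusted p of 0.519 and 0.539, and both signs turned when the 4 probes of the gene were averaged (0.10 and 0.033). The value after Thoc5 siRNA was -0.47 without replicate 1 of that group, -0.058 without replicate 2 and -0.43 within the shared slide.

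Slc7a5, the light chain that carries leucine, was measured by probe A_51_P273639 at chr8:120523247-120523306 on the minus strand of mm7. Levels were 2.69 and 2.33 with Thoc2 siRNA, 2.19 and 2.19 with Thoc5 siRNA, and 2.78 and 2.92 with NT siRNA. The Thoc5 siRNA arrays were equal to 2 decimals and below all others, and replicate 1 of Thoc2 siRNA came near the NT arrays. Slc7a5 was at 79.0% of NT after Thoc2 siRNA (-0.34 ± 0.18, limma adjusted p = 0.454) and at 63.3% after Thoc5 siRNA (-0.66 ± 0.18, limma adjusted p = 0.172). The first value was -0.52 without replicate 1 of Thoc2 siRNA, -0.16 without replicate 2 and -0.57 with normexp background correction.

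The heavy chain gene Slc3a2, the partner of Slc7a5, had levels near those of NT in both knockdowns with this scaling. It stood at 5.40 and 5.36 with Thoc2 siRNA, 5.40 and 5.15 with Thoc5 siRNA, and 5.35 and 5.35 with NT siRNA (probe A_51_P472901, chr19:8387861-8387920, minus strand, mm7). Only replicate 2 of Thoc5 siRNA stood away from the other arrays. For both knockdowns the log2 fold change was -0.02 ± 0.13 (limma adjusted p = 0.942). Its 95% interval of -0.38 to 0.33 leaves room for a change of either sign. The value moved to -0.39 with normexp background correction, outside that interval, and was positive with quantile normalization (0.055), cyclic loess (0.038), the deposited series table (0.051) and its 2 probes averaged (0.10). After Thoc5 siRNA alone Slc3a2 was at -0.07 ± 0.16, and at -0.39 with normexp. For both knockdowns normexp also moved the bright tRNA synthetase genes Lars (-0.16 to -0.51) and Aars (-0.14 to -0.48) down. It moved Slc1a4 and Slc7a1 up, to -0.46 and 0.81. The median of all genes under normexp is not given, so its move of Slc3a2 is not read as particular to that gene. The difference between Slc3a2 and Slc7a5 was not itself tested.

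Slc7a11, the cystine and glutamate exchanger, had 4 probes on chromosome 3, and none was well above background on both arrays of any group. Probe A_52_P298824 was so on replicate 1 of Thoc2 siRNA alone, where it read -4.61, against -7.70 on replicate 2, -6.95 and -7.47 with Thoc5 siRNA, and -7.40 and -8.30 with NT siRNA. Probe A_52_P663446 was so on replicate 1 of NT alone, at -5.21, while the other 5 arrays lay between -8.47 and -6.91. The remaining probes, A_51_P129502 and A_52_P368057, did not reach that mark on any array, so no fold change is given for Slc7a11.

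The 2 cationic transporter genes had the widest spread between replicates. Slc7a3 was at 2.61 and 5.29 with Thoc2 siRNA, 4.66 and 4.74 with Thoc5 siRNA, and 5.29 and 5.56 with NT siRNA (probe A_51_P275016, chrX:96406676-96406735, minus strand, mm7). Replicate 1 of Thoc2 siRNA was far below every other array, and replicate 2 was level with replicate 1 of NT. The log2 fold change after Thoc2 siRNA was therefore -1.48 ± 0.91 (limma adjusted p = 0.501) with both arrays, -0.14 without replicate 1, -2.82 without replicate 2 and -0.0093 within the shared slide. After Thoc5 siRNA Slc7a3 was at -0.73 ± 0.91 (limma adjusted p = 0.719), at 60.3% of NT, and at -0.82 within the shared slide. The groups share 1 estimate of the spread, so this array also enters the error of the Thoc5 comparison.

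Slc7a1 was dim, at -3.39 and -2.36 with Thoc2 siRNA, -4.39 and -4.12 with Thoc5 siRNA, and -2.64 and -4.42 with NT siRNA (probe A_51_P243246, chr5:147226953-147227012, minus strand, mm7). The 2 NT arrays were farther apart than any pair of replicates except those of Slc7a3, and they spanned most of the knockdown values. Its log2 fold change was 0.66 ± 0.70 after Thoc2 siRNA and -0.72 ± 0.70 after Thoc5 siRNA, with limma adjusted p of 0.693 and 0.644. These signs turned with 1 array left out: to -0.23 for Thoc2 siRNA without replicate 2 of NT, and to 0.17 for Thoc5 siRNA without replicate 1 of NT. Without the other NT array the values were 1.55 and -1.61.

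Whether the 2 knockdowns differed from each other was asked by setting Thoc5 siRNA directly against Thoc2 siRNA. Of the 8 transporters 6 were below 0, where 65% of all genes were, and the median of -0.13 was close to that of all genes, -0.127. None had an unadjusted p under 0.05, where 6.99% of genes were lower and 2.18% higher by this measure, and 3 had both Thoc5 arrays below both Thoc2 arrays (Slc7a1, Slc7a5 and Slc1a5), beside 32.6% of genes. Slc7a1 differed by -1.38 ± 0.70, with a 95% interval of -3.25 to 0.50 (limma adjusted p = 0.615). Slc1a5 differed by -0.30 ± 0.16 (-0.73 to 0.14) and Slc7a5 by -0.32 ± 0.18 (-0.81 to 0.17), with limma adjusted p of 0.632 and 0.639. Normexp background correction gave -0.65 for Slc7a1, -0.069 for Slc1a5 and -0.21 for Slc7a5. Without replicate 1 of Thoc2 siRNA Slc7a5 differed by -0.14 and without replicate 2 by -0.50, and Slc7a1 by -0.86 without replicate 2. Slc6a9 differed by -0.13 ± 0.16, with an interval of -0.56 to 0.30 (limma adjusted p = 0.795). Slc7a3 was higher by 0.75 ± 0.91, which became -0.59 without replicate 1 of Thoc2 siRNA and 2.09 without replicate 2. These intervals leave room for differences of either sign in each of the genes named.

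For 3 of the transporters more than 1 measured probe lay along the gene, and the probes did not give 1 fold change. The 5′ ends of the 4 Slc38a2 probes are shown in order from the 5′ to the 3′ side of the gene, since the fold change of this gene depends on which one is read. All lie on the minus strand of chromosome 15 in mm7; the first 2 were designed on the transcript record AK164568 and the last 2 on NM_175121, and whether each falls in an exon or a UTR was not looked up, as no annotation of mm7 was used here.
A_52_P459046, chr15:96699481-96699540: caaagaatagtgttacttttagatttcaaa
A_51_P199314, chr15:96698390-96698449: tgtgacagttgagaaattttggttagttga
A_52_P676686, chr15:96691104-96691163: ttgaatgtgcctaacggaaccattcgatgt
A_51_P458384, chr15:96689459-96689518: aaggttccaaatgaatttcaggccaaattc

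In a fit of every measured probe, the 3′-most Slc38a2 probe A_51_P458384 was at -0.29 ± 0.17 for both knockdowns against NT. Probe A_52_P676686, 1645 bases upstream, was at -0.13 ± 0.14. The 2 probes of the 5′ side, 8931 and 10022 bases upstream, were at 0.45 ± 0.15 and 0.24 ± 0.15. On the 5′ probe A_51_P199314 the levels were -2.44 and -2.48 with Thoc2 siRNA, -2.55 and -2.74 with Thoc5 siRNA, and -2.88 and -3.12 with NT siRNA. All 4 knockdown arrays were thus above both NT arrays there, with a limma adjusted p of 0.210 over all probes, while on the 3′-most probe all 4 were below.

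Slc3a2 was at -0.02 ± 0.14 on its 3′ probe and 0.23 ± 0.21 on A_52_P245648, 5994 bases upstream, in the same comparison. Slc1a4 was lower on both of its probes, by -1.15 ± 0.39 on the 3′ probe and -0.71 ± 0.29 on A_51_P371311, 915 bases upstream. On that second probe Slc1a4 stood at -1.19 and -2.02 with Thoc2 siRNA, -2.14 and -1.74 with Thoc5 siRNA, and -1.15 and -0.98 with NT siRNA, so that replicate 1 of Thoc2 siRNA nearly met the NT arrays. The 3′ probe minus the 5′-most probe differed between both knockdowns and NT by -0.52 for Slc38a2, -0.25 for Slc3a2 and -0.45 for Slc1a4. Differences of this sign were common on these arrays: over 6068 genes with at least 2 measured probes the median was -0.164, and 65.6% lay below 0. The same median was -0.170 for Thoc2 siRNA and -0.147 for Thoc5 siRNA against NT, and 0.0040 for Thoc5 against Thoc2 siRNA. Lower values than those of the 3 transporters were found in 23.2%, 42.2% and 27.2% of the genes. Its part in the transporters' fold changes was not tested, and the look at probe position was chosen after the values were seen.

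**Figure D3:**
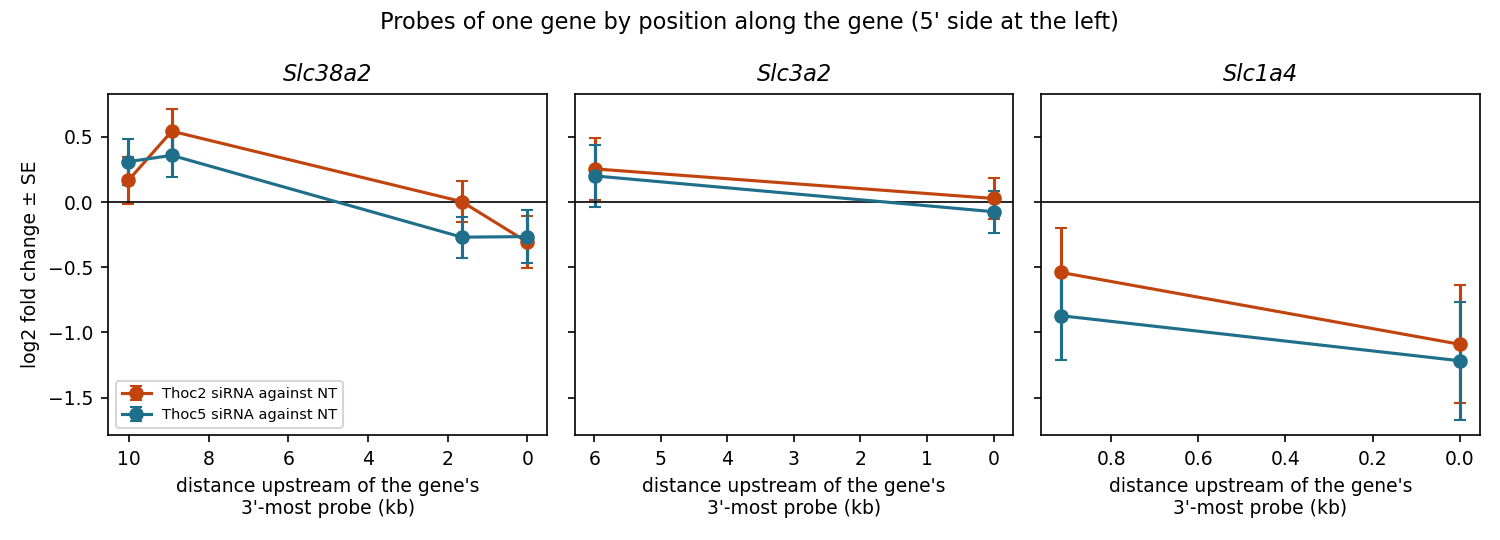
Log2 fold change with its standard error against NT for each measured probe of Slc38a2, Slc3a2 and Slc1a4, by distance in kilobases upstream of the gene's 3′-most probe (the 5′ side is at the left; the distance scale differs between panels), for Thoc2 siRNA and Thoc5 siRNA. In each panel the 3′-most probe lies lower than the 5′-most probe for both siRNAs, and the Slc38a2 probes pass from above 0 to below 0.

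Other genes of amino acid supply were read from lists chosen with earlier values known, for the mean of both knockdowns against NT. Of 40 other amino acid transporter genes 29 were measured, of which 13 were below 0, where 50.7% of all genes were, with a median of 0.10. At an unadjusted p under 0.05 there were 3 lower and 0 higher, beside 10.3% and 8.81% of all genes. The lowest p-values there were those of Slc38a4 (-0.99 ± 0.21), which carries neutral amino acids, and of the glutamate transporter genes Slc1a3 (-0.57 ± 0.19) and Slc1a6 (-0.47 ± 0.17). Slc38a4 was at -0.21 with its probes averaged, Slc1a3 at -0.34 without replicate 2 of NT, and Slc1a6 at -0.28 without replicate 1 of NT. The brightest of the rest were Slc7a7 at 0.40 ± 0.18, a light chain for cationic amino acids, Slc38a1 at -0.15 ± 0.17 and the taurine transporter gene Slc6a6 at -0.12 ± 0.14. Slc7a7 was at 0.17 without replicate 1 of NT, 0.63 without replicate 2 and -0.030 with normexp.

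All 20 cytosolic aminoacyl-tRNA synthetase genes, which charge tRNAs with their amino acids, were measured. Of these 16 were below 0, where 50.7% of all genes were, with a median of -0.28. At an unadjusted p under 0.05 there were 6 lower and 0 higher, beside 10.3% and 8.81% of all genes. Nars was at -0.98 ± 0.21, Iars at -0.52 ± 0.15 and Sars at -0.59 ± 0.17, against Lars at -0.16 ± 0.12, Aars at -0.14 ± 0.12 and Qars at 0.041 ± 0.15. They charge tRNA with asparagine, isoleucine, serine, leucine, alanine and glutamine in that order. Sars was at -0.99 with normexp.

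Among 28 Atf4 response genes other than the transporters, 24 were below 0, where 50.7% of all genes were, with a median of -0.79. At an unadjusted p under 0.05 there were 16 lower and 0 higher, beside 10.3% and 8.81% of all genes. The serine synthesis genes Psph (-0.99 ± 0.14), Phgdh (-0.97 ± 0.15) and Psat1 (-1.26 ± 0.19) had the smallest p-values. The brightest of the rest were Asns, which makes asparagine, at -0.72 ± 0.23, Eif4ebp1, an inhibitor of translation, at -0.35 ± 0.18, and Sesn2, a leucine sensor, at -0.0091 ± 0.15. Eif4ebp1 was at -0.086 with its probes averaged and -0.23 without replicate 1 of NT. After Thoc5 siRNA alone 13 of the list were lower and 1 higher at an unadjusted p under 0.05, beside 12.1% and 7.4% of all genes. The higher one was Atf3, at 1.38 ± 0.24, against -0.39 ± 0.24 after Thoc2 siRNA. For both knockdowns Atf4 itself was at -0.38 ± 0.23, and its knockdown and NT arrays overlapped. The list's median lay below that of the transporters, and a difference between these lists was not tested.

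Amino acid sensing through mTORC1, the kinase complex that couples amino acid supply to growth, was covered by 27 measured genes of 28. Of them 15 were below 0, where 50.7% of all genes were, with a median of -0.028. At an unadjusted p under 0.05 there were 3 lower and 5 higher, beside 10.3% and 8.81% of all genes. The counts below 0 and lower were thus near the shares over all genes. The inhibitor gene Tsc1 was at 0.73 ± 0.12, Deptor at -0.58 ± 0.13 and Akt1s1 at 0.52 ± 0.15. The small GTPase gene Rheb was at -0.28 ± 0.13, and Lamtor1 and Lamtor2, which anchor the complex at the lysosome, were at -0.020 ± 0.13 and -0.17 ± 0.12. Tsc1 was at 0.30 with its probes averaged, and Rheb at -0.49 with normexp. No gene of these 4 lists passed the limma adjusted threshold.

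**Figure D4:**
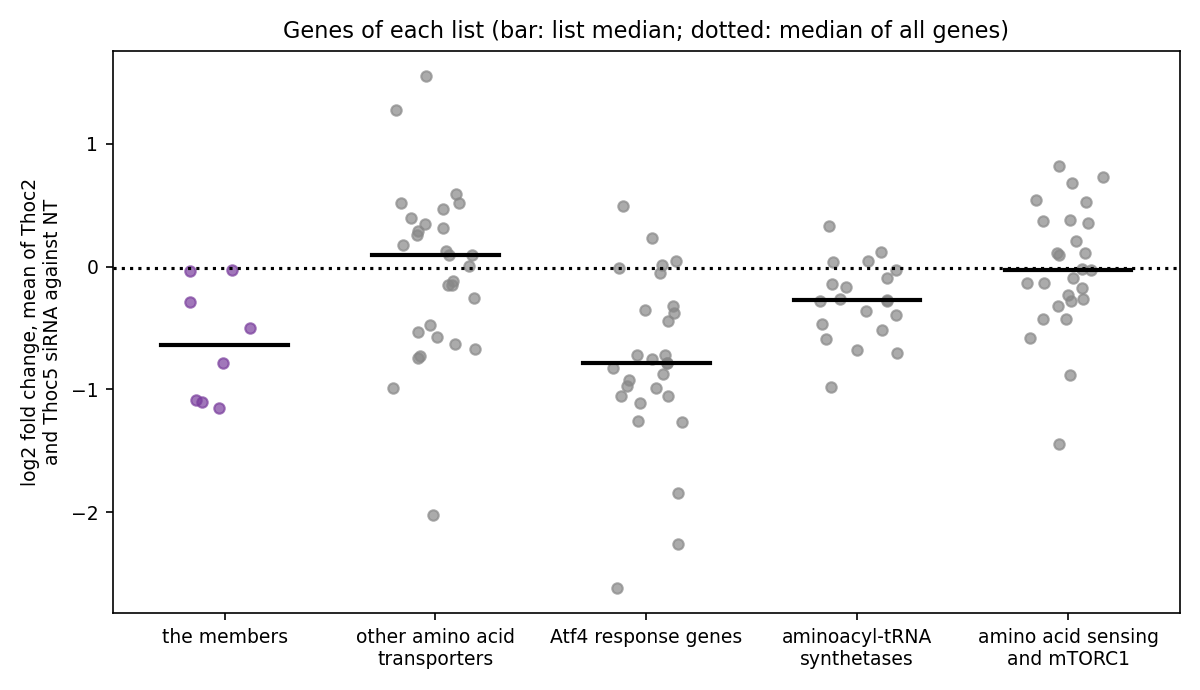
Log2 fold change of both knockdowns against NT for the 8 measured transporters and for the genes of 4 lists; each point is a gene, bars are list medians and the dotted line is the median of all genes. The transporter median of -0.64 and the Atf4 response median of -0.79 lie below those of the other lists, which are between -0.28 and 0.10.

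Promoter sequence was available from RefSeq (GRCm38.p6) for 6 of the 9 transporters, Slc7a1, Slc7a11, Slc3a2, Slc38a2, Slc1a4 and Slc6a9, with 9 promoters in all. The 250 bases before each start were searched on both strands for TGATGNAA, the letters of the amino acid response element that Atf4 binds with a partner. Of the 9 promoters 1 held it, that of Slc7a11, where 3.45% of 32851 promoters did. It is shown because it holds 2 matches, in capitals, which begin 66 bases (plus strand of the gene) and 47 bases (minus strand) before the start and do not overlap.
Slc7a11 promoter, chr3:50443614-50443863, minus strand, GRCm38.p6: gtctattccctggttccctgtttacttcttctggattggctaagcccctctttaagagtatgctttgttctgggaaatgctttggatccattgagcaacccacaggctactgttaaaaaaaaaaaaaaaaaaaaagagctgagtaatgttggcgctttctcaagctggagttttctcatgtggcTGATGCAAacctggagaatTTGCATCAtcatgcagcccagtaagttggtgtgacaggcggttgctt

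Slc7a11 was the transporter with no measured level, so the match stands beside no fold change. The letters were not in the windows of the 5 measured transporters searched, which says nothing of sites elsewhere in those genes.

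The transporters' profiles over the 6 arrays were compared with each other and with other genes as a description. Slc1a5 and Slc6a9 were the most alike pair (Pearson r = 0.930), followed by Slc1a4 and Slc7a5 (0.899) and Slc1a4 and Slc6a9 (0.890), and the least alike were Slc3a2 and Slc7a3 (-0.197). These arrays share 3 groups, so the likeness of profiles includes the difference between groups. Among 8643 genes whose levels spanned at least 1 log2 unit, Mapk13 was most like the mean of the 8 transporters (0.998), followed by Il17rc (0.991) and Mycl (0.991). The gene most like Slc6a9 was Cyp39a1 (0.995), and that most like Slc1a5 was Ooep (0.996). For Slc1a4 it was Clca3a1 (0.994), for Slc38a2 Gjb2 (0.968) and for Slc7a1 Sertm1 (0.999). For Slc7a3, Slc7a5 and Slc3a2 the closest were the records TC1485047 (0.997), AK049904 (0.994) and A_52_P692753 (0.980), which have no gene symbol in the files. Nothing on shared function is read from 6 arrays and this many candidates.

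**Figure D5:**
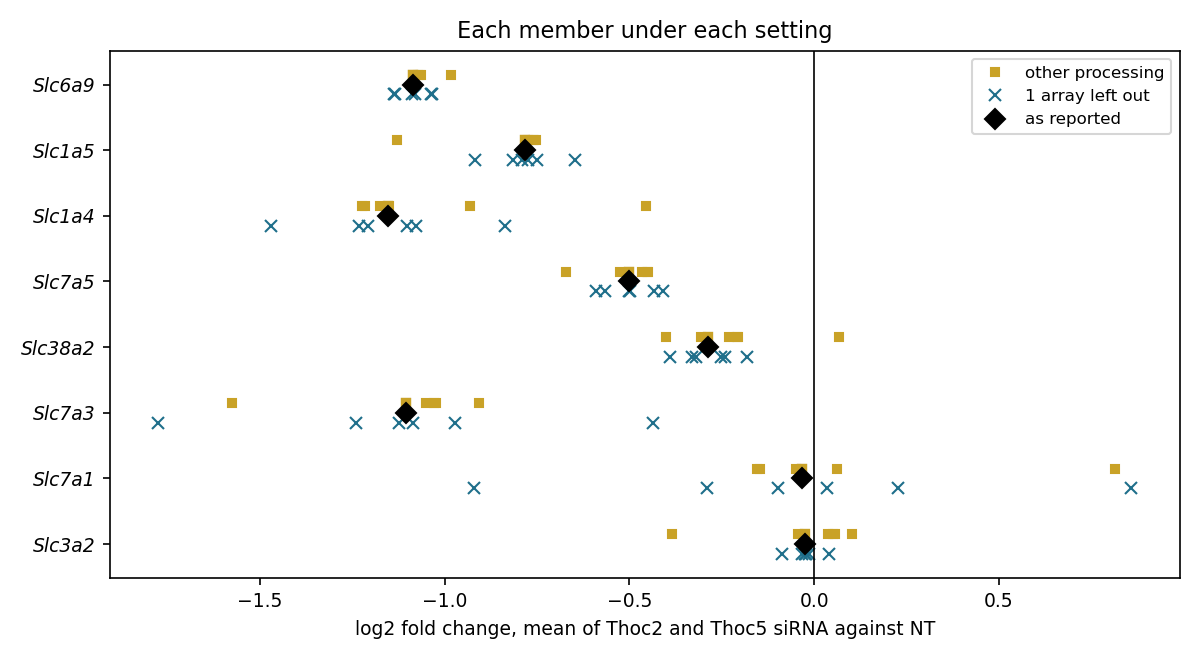
Log2 fold change of both knockdowns against NT for each measured transporter as reported (diamonds), with other processing (squares) and with 1 array left out (crosses). Slc6a9, Slc1a5, Slc1a4, Slc7a5 and Slc7a3 stay below 0 at every mark, while Slc38a2, Slc7a1 and Slc3a2 have marks on both sides of 0.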

How the data were processed

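Agilent Feature Extraction made the scanner files, in version 9.5.3.1 per the file headers and 11.0 per the submitters' processing notes. They hold the deposited processed signal intensity of each spot, with mean and background intensity. The authors' series table holds log2 values: each array's values kept the rank order of its processed signal (Spearman correlation of 1), the medians were 5.95, and its making is not given in the sources used here. On each array its values correlated with the quantile-normalized signal at a Pearson r of at least 0.9993. It served as an alternative, and is close to the quantile normalization setting rather than independent of it.

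Levels were log2 of the processed signal minus each array's 75th percentile. Control and outlier spots were left out, spots of a probe averaged, and a probe was kept if well above background (at least 0.5 of its spots) on both arrays of a group. The brightest kept probe stood for a gene. Of 41174 probes 22951 were named by accession, 131 by another accession, 6582 by symbol and 3073 by synonym (GRCm38.p6, names only), and 8437 kept the files' name. Fits used limma 3.58.1 in R 4.3.3 (lmFit, eBayes; 3 residual and 1.49 prior degrees of freedom) on all 6 arrays, two-sided, with Benjamini-Hochberg adjustment over 19369 genes and a threshold of 0.05, and were tested on simulated data. An exact permutation test with a doubled one-sided p could not give a p below 0.333 for 2 arrays against 2 or 0.133 for 4 against 2. The number of arrays limits the precision. Promoters were searched in Python 3.11.15 and figures drawn with matplotlib 3.10.9.

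The members and lists were chosen with earlier results of these data known. Named were all members and their probes, the siRNA targets, from each list up to 3 genes with the smallest unadjusted p under 0.05 and up to 3 of the brightest others, and the genes most like the members' profiles. Some cell type markers, Atf3 and Atf4 were named besides, after the values were seen. Alternatives changed the scaling, background correction, filter, probe choice, variance model, blocks and arrays.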

Additional observations from a re-analysis of the deposited data

How the results depend on the processing

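The 4 comparisons were repeated under 18 planned settings, and counts of members below 0 and at a low unadjusted p were added after seeing the data. Slc6a9, Slc1a5, Slc1a4, Slc7a5 and Slc7a3 stayed below 0 against NT in every setting run, in both knockdowns. The trend and robust variances called 4 (Thoc2 siRNA), 660 (Thoc5 siRNA) and 637 (both) genes against NT in place of 0, and 2 members, Slc6a9 and Slc1a5, after Thoc5 siRNA and for both. Probes above background on all arrays (15222 genes) gave 509 (Thoc5 siRNA) and 438 (both) called genes and 1 called member, Slc6a9, in each. Reading every kept probe moved the members' median to -0.31 (Thoc2 siRNA) and -0.29 (both), as genes with several probes then weigh more. Members lower at an unadjusted p numbered 2 with normexp (Thoc5 siRNA and both). With 1 array left out they numbered 1 to 3 (Thoc2 siRNA), 2 to 5 (Thoc5 siRNA), 0 to 1 (Thoc5 against Thoc2 siRNA) and 2 to 5 (both). Same-numbered arrays deviated together with correlations of -0.20 (Thoc2 and NT), 0.143 (Thoc5 and NT) and 0.218 (Thoc5 and Thoc2). These rest on 1 difference between replicates per group, so they cannot tell whether the numbers pair the samples. The replicate block gave 2 members lower at an unadjusted p for both and called 0 genes in each comparison. With the Thoc2 numbers crossed, added after seeing the data, 0 were called for Thoc2 siRNA.

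Signs turned as follows, and the cause was not tested. For Thoc2 siRNA Slc3a2 was -0.38 with normexp, Slc38a2 0.10 with probes averaged and Slc7a1 -0.23 without NT replicate 2. For Thoc5 siRNA Slc3a2 was 0.039 (quantile), 0.014 (cyclic loess), 0.042 (series table), 0.063 (probes averaged) and 0.051 (without Thoc5 replicate 2), Slc38a2 0.033 (probes averaged), and Slc7a1 0.49 (normexp), 0.17 (without NT replicate 1) and 0.30 (within the shared slide). For Thoc5 against Thoc2 siRNA Slc1a4 was 0.020 (quantile), 0.058 (normexp), 0.033 (series table), 0.51 (without Thoc2 replicate 1) and 0.030 (without Thoc5 replicate 1). There Slc38a2 was -0.014 (normexp), -0.068 (probes averaged), -0.027 (without Thoc2 replicate 1) and -0.17 (without Thoc5 replicate 1), Slc7a3 -0.59 (without Thoc2 replicate 1) and Slc3a2 0.023 (without Thoc5 replicate 2). For both Slc3a2 was 0.055 (quantile), 0.038 (cyclic loess), 0.051 (series table), 0.10 (probes averaged) and 0.039 (without Thoc5 replicate 2), and Slc38a2 0.067 (probes averaged). Slc7a1 was 0.81 (normexp), 0.061 (slide as a random block, correlation 0.287), 0.86 (without NT replicate 1), 0.23 (without Thoc2 replicate 1) and 0.034 (without Thoc5 replicate 1). With 1 array left out the far ends of those ranges were 1.55 (Slc7a1, Thoc2 siRNA), -1.61 (Slc7a1, Thoc5 siRNA), 2.09, 0.25 and -0.76 (Slc7a3, Slc38a2 and Slc1a4, Thoc5 against Thoc2 siRNA) and, for both, -0.92 (Slc7a1), -0.086 (Slc3a2), 0.12 (Qars), -0.087 (Sesn2) and -0.063 (Lamtor1). Of list genes Slc7a7 was -0.030 and Qars -0.11 with normexp, Qars -0.041 without Thoc5 replicate 1 and Slc6a6 0.0059 with probes averaged. Sesn2 and Lamtor1, both near 0, were 0.080 and 0.054 (quantile), 0.057 and 0.041 (cyclic loess), 0.076 and 0.045 (series table), 0.032 and 0.27 (probes averaged), 0.019 and 0.022 (without NT replicate 1), 0.037 and 0.023 (without Thoc5 replicate 2), with Sesn2 at 0.069 without Thoc2 replicate 1.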
